A study of Mus musculus with 18 samples.

Results

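The nuclear-encoded subunits of the mitochondrial respiratory chain and ATP synthase were followed in mouse paw fibroblasts. Members were taken by gene symbol: Nduf names of the A, B, C, S and V series for complex I, Sdha to Sdhd for complex II, Uqcr names for complex III, Cox4 to Cox8 names for complex IV and Atp5 names for complex V, leaving out pseudogene names. This gave 83 of 32285 identifiers in the count table, of which 36 belong to complex I, 4 to complex II, 8 to complex III, 18 to complex IV and 17 to complex V. A filter on low counts passed 80 of them, and Cox7b2, Cox8b and Cox8c did not pass. The set follows symbols and not protein composition: Ndufa4 is counted with complex I by its name although the protein is now assigned to cytochrome c oxidase, Cox7a2l encodes a factor that joins complexes III and IV, and Atp5s encodes an accessory factor of ATP synthase.

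Complexes I and II pass electrons from NADH and succinate to coenzyme Q, complex III passes them on to cytochrome c and complex IV to oxygen. Complexes I, III and IV pump protons across the inner mitochondrial membrane, and complex V uses the gradient to make ATP. Most subunits are encoded in the nucleus and a few core subunits in mitochondrial DNA, and several subunits of complex IV exist as pairs of a ubiquitous and a tissue-restricted isoform. Synovial fibroblasts of inflamed joints are known for high glycolytic activity.

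Total RNA was sequenced from sorted paw synovial fibroblasts, all labelled WT, in 6 groups of 3 libraries. Fibroblasts of naive mice were unstimulated or received the growth factor FGF2 (10 ng/mL), the secreted phosphoprotein OPN (osteopontin, 50 ng/mL) or both, for 3 days. Fibroblasts of mice with K/BxN serum-induced arthritis (STIA, in which transferred antibodies cause joint inflammation) were unstimulated or received OPN (50 ng/mL). The labels give no mouse strain, age or sex, no time in culture for unstimulated cells, and nothing on whether the 3 libraries of a group came from separate mice or cultures, so p-values measure the spread between libraries, which may be technical.

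Libraries held 27527043 to 40357342 counts. The members took 0.578 to 0.715% of them, and the transcripts of mitochondrial DNA 0.374 to 0.867%. Sums over 10 fibroblast markers, in CPM (counts per 1000000 counts, after scaling), were 92000 to 100000 in naive, 80800 to 93600 in OPN, 68200 to 78700 in STIA and 85000 to 85400 in STIA+OPN libraries, but 30800 to 34100 with FGF2 and 42400 to 53600 with both agents, against at most 56.6 CPM for 9 macrophage markers (highest with FGF2, 14.2 to 15.5 in naive libraries) and at most 16.5 for 7 endothelial markers. Single markers of the fibroblast and macrophage lists did not all follow their sum. In bulk RNA, fewer cells of a type and less RNA per cell cannot be told apart. The third FGF2+OPN library stood apart from its group, with a summed member level of 6935 CPM against 5953 and 5578, and counts of members called in comparisons with this group are given with and without it.

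In unstimulated naive cells the levels spread widely around complex-specific medians, compared per kilobase of the principal transcript. The median over tested members was 47.4 CPM per kb for complex I, 60.1 for complex II, 70.9 for complex III, 75.5 for complex IV and 120 for complex V. The highest in each complex were Ndufa4 at 130, the flavoprotein Sdha at 83.2, the small subunit Uqcrq at 191, the ubiquitous Cox6a1 at 349 and the catalytic beta subunit Atp5b at 459 CPM per kb. The lowest were Ndufb4 at 12.3, the membrane anchor Sdhc at 32.1, the Rieske protein Uqcrfs1 at 41.4, the tissue-restricted Cox7a1 at 0.743 and Atp5s at 3.89 CPM per kb.

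Each gene was tested with edgeR's quasi-likelihood test, and p-values were adjusted over all 15072 genes tested (Benjamini-Hochberg). A gene is called where the adjusted p is below 0.05. Differences are log2 fold changes with their standard error (SE). Stimulated naive groups and STIA are each compared with the same 3 naive libraries, so the comparisons share them and are set side by side without a test of their likeness.

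**Figure D1:**
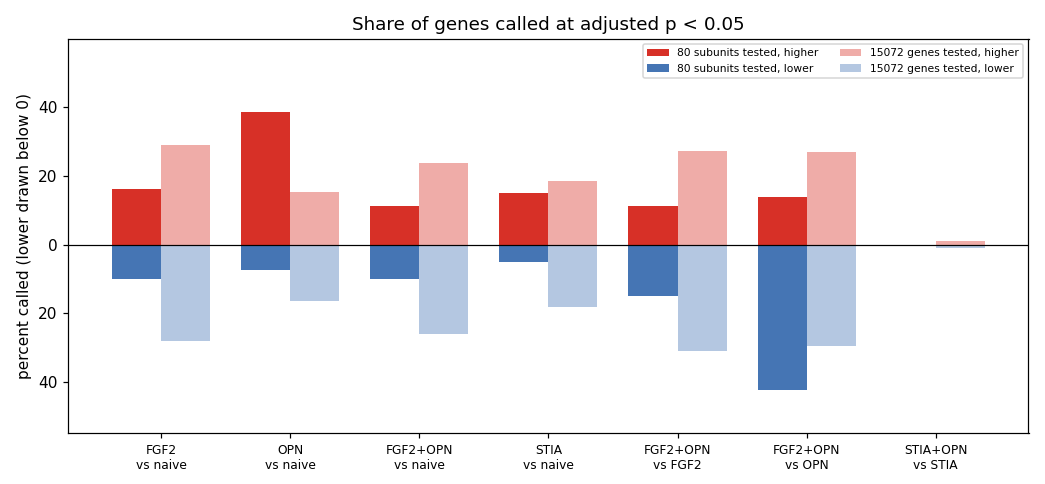
Percent of the 80 tested subunits (dark) and of all 15072 tested genes (pale) called higher (above 0) or lower (below 0) in 7 comparisons of 3 against 3 libraries. OPN against naive is the comparison in which the subunits' higher share (38.8%) stands above that of all genes (15.2%).

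In OPN-treated naive cells a set of small subunits of complexes I, III, IV and V was higher, and 6 members of 146 codons or more were lower. Of 80 members, 31 were higher and 6 lower, against 15.2% of all genes higher and 16.5% lower (31.7% in all), and the members' median log2 change was 0.14 against 0.00 over all genes tested. Higher members numbered 14 of 36 in complex I, 4 of 8 in complex III, 7 of 15 in complex IV and 6 of 17 in complex V. None of the 4 complex II genes was called in either direction, with log2 values of -0.09 for Sdha, -0.07 for Sdhb, -0.06 for Sdhc and -0.13 for Sdhd. With 1 library left out at a time, 22 of the 37 calls held in every case and 28 to 38 members were called.

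The largest rise was in Cox7c, a small subunit of cytochrome c oxidase. Cox7c stood at 42.6, 48.9 and 48.3 CPM in naive libraries and at 87.7, 100.3 and 102.1 CPM with OPN. The OPN libraries lay far above the naive ones, with a log2 change of 1.05 (SE 0.08, adjusted p = 4.54e-09, edgeR). In complex IV Cox5b (0.50), the zinc-binding subunit, Cox6c (0.47) and Cox7b (0.47) also rose on the log2 scale, as did Cox6b1 (0.34), whose call was lost without OPN library 2 (0.28) or naive library 1 (0.29) or 3 (0.33).

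In complex I the leading rises were Ndufa1, a small subunit needed for assembly of the membrane arm, Ndufb4 and Ndufa3. Ndufa1 was measured at 16.3, 19.7 and 16.9 CPM in naive libraries and 30.6, 32.9 and 31.5 CPM with OPN, a log2 change of 0.85 (SE 0.10, adjusted p = 1.18e-06). Ndufb4 went from 13.1, 12.9 and 9.87 CPM to 21.7, 20.7 and 21.2 CPM, a log2 change of 0.83 (SE 0.11, adjusted p = 7.32e-06). In both genes the highest naive library lay below the lowest OPN library, as libraries of these groups did not overlap in 46.4% of all genes. Among subunits that carry the flavin and iron-sulphur clusters or sit beside them, several did not pass in this comparison, with log2 values of -0.17 for Ndufv1, 0.12 for Ndufv2, -0.05 for Ndufs1, 0.04 for Ndufs3, -0.21 for Ndufs7 and 0.09 for Ndufs8.

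Complex III moved in both directions. The small subunit Uqcrb stood at 22.8, 25.3 and 26.1 CPM in naive libraries and at 37.0, 43.7 and 42.8 CPM with OPN, with no overlap and a log2 change of 0.73 (SE 0.09, adjusted p = 3.62e-06). Uqcr10 (0.57), Uqcr11 (0.48) and the hinge protein Uqcrh (0.43) rose with it. The core protein Uqcrc1 fell, from 134.8, 153.7 and 147.5 CPM to 118.1, 130.5 and 117.2 CPM, a log2 change of -0.25 (SE 0.07, adjusted p = 0.00543), again with no overlap. The core protein Uqcrc2 fell by 0.21 and Uqcrfs1 by 0.23 on the log2 scale, but the Uqcrc2 call was lost without OPN library 3 (-0.17) and the Uqcrfs1 call without OPN library 1 (-0.23) or 3 (-0.18) or naive library 3 (-0.16).

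In ATP synthase several short subunits rose and the alpha subunit, part of the catalytic head, fell. Other short members of complex V were not called, with log2 values of 0.04 for Atp5l, 0.05 for Atp5g1, 0.14 for Atp5g2 and 0.08 for Atp5g3. Atp5mpl, a small proteolipid of the complex, stood at 22.3, 24.9 and 27.1 CPM in naive libraries and 39.9, 42.3 and 42.6 CPM with OPN, a log2 change of 0.75 (SE 0.08, adjusted p = 4.77e-07). Coupling factor 6, Atp5j, went from 63.4, 68.2 and 63.6 CPM to 91.9, 91.9 and 91.2 CPM, a log2 change of 0.49 (SE 0.07, adjusted p = 8.3e-06). The OPN libraries were above the naive ones in both genes. The epsilon subunit Atp5e rose by a log2 change of 0.45, and Atp5k by 0.76, whose call was lost without OPN library 2 (0.69) or naive library 1 (0.64) or 3 (0.66). The alpha subunit Atp5a1 fell from 580.8, 624.5 and 632.5 CPM to 517.9, 518.3 and 490.8 CPM, a log2 change of -0.27 (SE 0.07, adjusted p = 0.00438). The beta subunit Atp5b did not pass, at a log2 value of -0.07. The other calls among the falls, Atp5d at -0.27 and Cox5a of complex IV at -0.25, were lost without OPN library 3 (-0.25 and -0.20) or naive library 3 (-0.23 and -0.22), and Atp5d also without OPN library 2 (-0.26) or naive library 2 (-0.25).

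**Figure D2:**
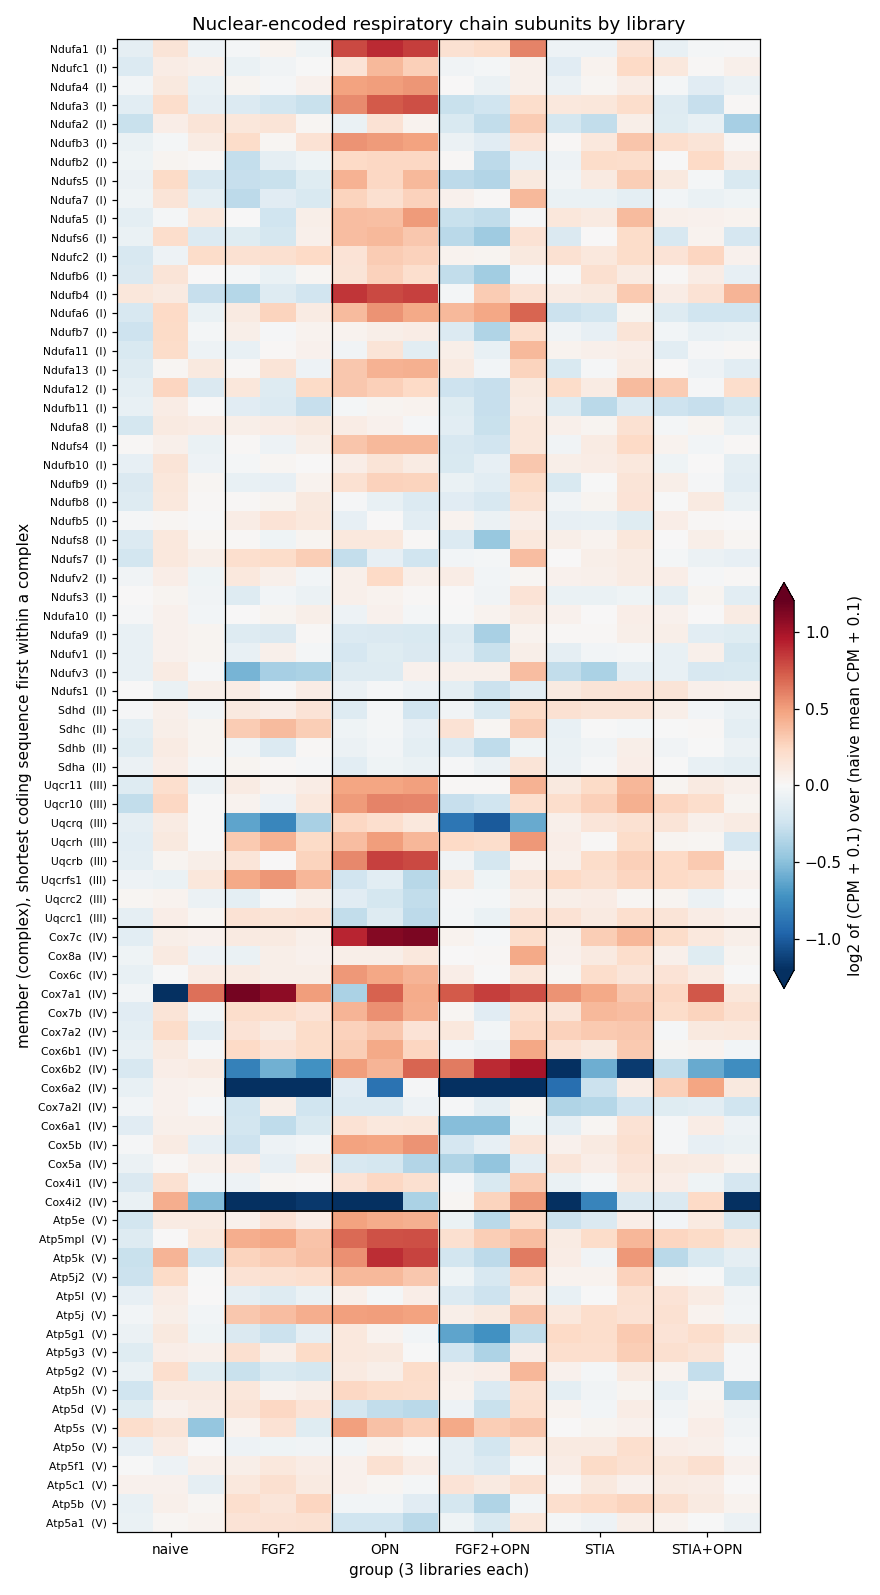
Log2 level of 79 of the 80 tested members (rows, by complex and then by coding length) in each of the 18 libraries (columns) relative to the naive mean, after adding 0.1 CPM. Rows of short subunits in complexes I, III, IV and V are red in the 3 OPN libraries, and the third FGF2+OPN library is redder than the others of its group.

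Of the 83 members, 68 had a promoter window in the RefSeq table for build GRCm38.p6 (250 bases before to 50 after a start). Motifs of factors known to act on respiratory chain genes were searched on both strands: GCATGCGC for NRF1, CCGGAAG for the ETS factor GABPA, AAGATGGC for YY1 and AAGGTCA for the ERR alpha element. None of these strings contains another, although the letters AAG that end CCGGAAG also begin AAGATGGC and AAGGTCA. At least 1 of them was in 34 of 68 member windows and in 17.6% of all 32851 windows, which include non-coding genes and several starts per gene. NRF1 letters were in 14.7% of members against 2.71% of windows, GABPA in 23.5% against 8.86%, YY1 in 14.7% against 2.75% and ERR alpha in 11.8% against 4.72%. Of the 28 members with a window that were higher with OPN, 3 held the NRF1, 6 the GABPA, 6 the YY1 and 4 the ERR alpha letters, and of the 34 that were not called 6, 10, 4 and 4 did. A match is a description of letters and not of binding. The 120 bases before the start are shown for 5 members that rose with OPN in complexes I, III, IV and V, since they are the regions where a shared element could lie, with matches in capitals.
Ndufa1 (chrX:37191239-37191358, minus strand): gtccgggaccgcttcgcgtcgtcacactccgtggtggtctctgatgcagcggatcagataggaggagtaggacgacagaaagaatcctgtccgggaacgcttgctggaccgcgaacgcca
Ndufa3 (chr7:3617253-3617372, plus strand): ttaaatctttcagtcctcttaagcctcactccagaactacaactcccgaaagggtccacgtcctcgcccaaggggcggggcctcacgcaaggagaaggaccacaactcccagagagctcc
Uqcrh (chr4:116075071-116075190, minus strand): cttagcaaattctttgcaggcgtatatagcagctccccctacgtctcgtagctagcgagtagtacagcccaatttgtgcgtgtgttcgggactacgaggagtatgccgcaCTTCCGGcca
Cox7b (chrX:106015580-106015699, plus strand): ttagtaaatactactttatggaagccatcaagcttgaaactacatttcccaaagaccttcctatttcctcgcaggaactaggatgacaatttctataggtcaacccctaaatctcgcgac
Atp5e (chr2:174464102-174464221, minus strand): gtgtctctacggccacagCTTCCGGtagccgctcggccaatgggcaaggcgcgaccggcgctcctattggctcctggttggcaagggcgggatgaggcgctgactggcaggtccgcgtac
The capitals in Uqcrh and Atp5e are the GABPA letters on the opposite strand, and the stretches of Ndufa1, Ndufa3 and Cox7b hold none of the 4 motifs. Outside the bases shown, the full window of Ndufa3 held the YY1 letters and that of Atp5e the ERR alpha letters.

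The OPN response followed coding length. Among members of at most 100 codons 17 of 22 were higher and 0 lower, and of those with 101 to 150 codons 12 of 24 were higher and 1 lower. Of members with 151 to 300 codons 2 of 23 were higher and 2 lower, and of those above 300 codons 0 of 11 were higher and 3 lower. Across the 80 members Spearman's rho between the log2 change and coding length was -0.71. Genes are not independent replicates here, since all rest on the same 6 libraries.

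Cytosolic ribosomal protein genes also ran with coding length, and the relation was weak over all genes outside the members. Over 81 cytosolic ribosomal protein genes rho was -0.71, with short ones such as Rpl38 (1.12) and Rps29 (1.11) higher and long ones such as Rpsa (-0.38) and Rps2 (-0.36) lower on the log2 scale. Over the 13660 genes outside the members with a coding length, ribosomal ones included, rho was -0.13. Of the 257 genes of at most 100 codons among them 40.9% were higher. The summed CPM of members of at most 100 codons over that of members above 300 codons was 0.528 to 0.557 in the 3 OPN libraries and 0.348 to 0.416 in the other 15. For ribosomal proteins (at most 100 against more than 250 codons) it was 0.222 to 0.251 against 0.123 to 0.171. Over all other genes the OPN libraries, at 0.01322 to 0.01399, lay above naive (0.01121 to 0.01174), STIA (0.01236 to 0.01321) and STIA+OPN libraries (0.01178 to 0.01247). They lay below FGF2 (0.01595 to 0.01655) and FGF2+OPN libraries (0.01418 to 0.01594).

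With the trend of all genes on transcript length removed, 22 members were higher and 14 lower with OPN, and with the trend on coding length removed 17 were higher and 12 lower. Of the 37 calls, 28 and 23 remained. Cox7c kept a log2 change of 0.72, Ndufb4 of 0.68, Uqcrb of 0.56 and Ndufa1 of 0.54 with the coding length trend removed, while Uqcr10 (0.24, adjusted p = 0.0534) and Atp5k (0.47, adjusted p = 0.0623) were no longer called. Both settings were added after seeing the data, and what moves these short and long transcripts apart was not tested. All 3 libraries of OPN-treated naive cells show it, so an effect of the treatment on these genes and a property of those libraries cannot be told apart, and this holds for each OPN call above and each comparison with these libraries below.

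**Figure D3:**
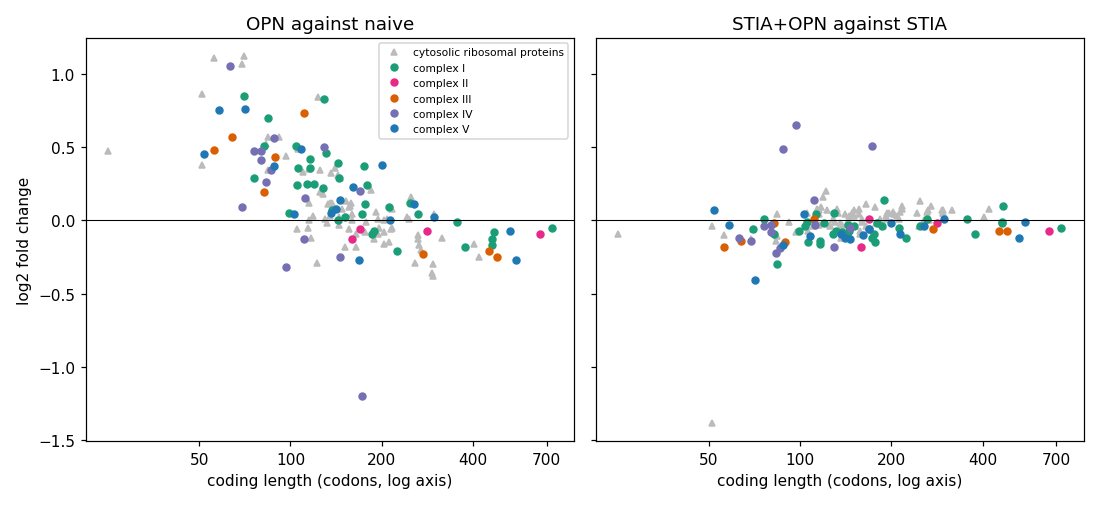
Log2 fold change against coding length (codons, log axis) for the 80 members, coloured by complex, and 81 cytosolic ribosomal protein genes (grey triangles), for OPN against naive (left) and STIA+OPN against STIA (right). Short genes of both kinds lie high on the left panel (rho -0.71 in each). On the right panel rho is 0.20 for the members and 0.45 for the ribosomal protein genes.

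**Figure D4:**
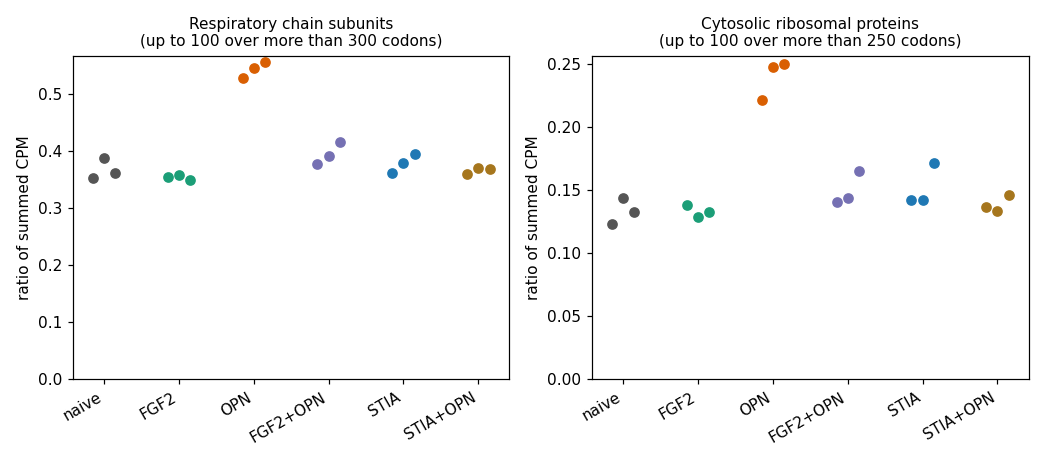
Ratio of the summed CPM of short to long genes in each library (points, 3 per group) for the members (left) and for cytosolic ribosomal proteins (right). The 3 OPN libraries lie between 0.528 and 0.557 on the left and between 0.222 and 0.251 on the right, above the other 15 libraries.

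In STIA cells no call was made for OPN among the 80 members. edgeR called 0 and DESeq2 called 0, where edgeR called 1.15% of all genes higher and 1.02% lower (2.17% in all). An unadjusted p below 0.05 was found for 7 members, a looser threshold that these shares do not match. The members' median log2 change was -0.06. Cox7c stood at 48.7, 57.1 and 61.4 CPM in STIA and at 54.2, 50.9 and 49.1 CPM in STIA+OPN libraries, which overlap, while 25.4% of all genes showed no overlap. Fitted on these 2 groups alone, 6 members were called lower and 0 higher, beside 5.17 and 4.71% of all genes in that fit.

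The OPN effect itself differed between STIA and naive cells. The test of the difference called 24 members lower and 0 higher in STIA, against 10.5 and 11.8% of all genes (22.3% in all). They were 10 genes of complex I, 4 of complex III, 6 of complex IV and 4 of complex V. For Cox7c the difference was -1.17 (SE 0.12, adjusted p = 3.77e-07), for Ndufa3 -1.0 (SE 0.16, adjusted p = 0.000109), for Ndufa1 -0.91 (SE 0.14, adjusted p = 7.65e-05) and for Uqcrb -0.73 (SE 0.13, adjusted p = 0.000394), on the log2 scale. These differences ran with coding length too (rho 0.69 over the members and 0.69 over ribosomal proteins). With the transcript or coding length trend removed 22 or 14 members were lower and 7 or 6 higher. Of all genes 11.6 or 10.7% were lower and 14 or 13% higher in these 2 fits.

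FGF2 on naive cells gave calls in every complex: 5 in complex I, 1 in complex II, 4 in complex III, 6 in complex IV and 5 in complex V. It called 13 members higher and 8 lower, against 29.1 and 28.1% of all genes (57.1% in all), with a member median of 0.04 on the log2 scale. Of these 21 calls 10 held when any 1 library was left out, and 12 members were called without FGF2 library 3. Scaled by library totals alone, 27 were higher and 5 lower, beside 34.7 and 23.5% of all genes. With the transcript or coding length trend removed 13 or 9 were higher and 15 or 22 lower. Of all genes 32.6 or 32.3% were higher and 28.8 or 28.7% lower in these 2 fits. The balance of directions among the members thus depends on the scaling. In these libraries fibroblast marker sums were lower and macrophage marker sums higher than in naive ones (values above). Single markers of each list went both ways. In naive and FGF2 libraries Col1a1 averaged 37000 and 4070 CPM, but Vim 5050 and 8720 and Pdgfra 317 and 396. Cd14 averaged 6.03 and 43.8 CPM, but Lyz2 3.86 and 0.576 and Csf1r 2.92 and 0.479. With FGF2 Ptprc was at 0.0957 and Adgre1 at 0.0323 CPM. The part of either list in these calls was not tested.

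Within complex III, FGF2 moved Uqcrq and Uqcrfs1 in opposite directions. Uqcrq fell from 71.8, 83.0 and 77.2 CPM in naive libraries to 49.9, 45.0 and 59.2 CPM with FGF2, a log2 change of -0.59 (SE 0.09, adjusted p = 1.12e-05). Uqcrfs1, the Rieske iron-sulphur protein that passes electrons towards cytochrome c, went from 53.9, 53.4 and 61.9 CPM to 77.2, 81.6 and 74.5 CPM, a log2 change of 0.46 (SE 0.07, adjusted p = 7.9e-06). Neither gene's groups overlapped, where 61.3% of all genes showed no overlap. Uqcrh rose by 0.32 on the log2 scale.

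Sdhc was the only called gene of complex II with FGF2. It stood at 93.7, 107.1 and 104.3 CPM in naive libraries and at 125.6, 132.3 and 125.1 CPM with FGF2, a log2 change of 0.33 (SE 0.07, adjusted p = 0.000184). The groups did not overlap. Its partners Sdha, Sdhb and Sdhd were not called, and their naive and FGF2 ranges overlapped for Sdha (230.0 to 255.5 and 239.4 to 246.5 CPM) and Sdhb (61.0 to 72.2 and 60.1 to 68.1 CPM) but not for Sdhd (73.1 to 78.3 and 79.6 to 84.2 CPM). With both agents Sdhc read 114.4, 103.6 and 126.0 CPM, and its call against naive was lost without FGF2+OPN library 1 (0.17) or 3 (0.10) or naive library 1 (0.12).

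In complex I FGF2 lowered Ndufv3, an accessory subunit next to the flavoprotein. Its libraries read 40.3, 45.8 and 42.5 CPM in naive and 29.1, 32.4 and 32.8 CPM in FGF2 cells, without overlap and with a log2 change of -0.45 (SE 0.09, adjusted p = 0.000197). In complex V Atp5j (0.38) and Atp5mpl (0.42) rose on the log2 scale. Atp5b (0.20) and Atp5a1 (0.17) were also called higher, but not without naive library 1, at 0.16 and 0.14, nor without FGF2 library 3, at 0.17 and 0.17, and Atp5a1 not without FGF2 library 1, at 0.18.

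FGF2 with OPN on naive cells called 9 members higher and 8 lower against naive, beside 23.7 and 26.1% of all genes (49.8% in all), with a member median of 0.01. Fibroblast marker sums were lower than in naive libraries here too, but single markers went both ways. In naive and FGF2+OPN libraries Col1a1 averaged 37000 and 8070 CPM, but Pdgfra 317 and 722 and Dcn 154 and 630. The count rests on the third FGF2+OPN library: without it 28 members were called, 5 higher and 23 lower, beside 22.6 and 26.1% of all genes. Scaled by library totals alone 32 were higher and 3 lower, beside 34.9 and 16% of all genes. This scaling moves the median of all genes from -0.01 to 0.14. With the transcript or coding length trend removed 4 or 3 were higher and 20 or 22 lower. Of all genes 22.7 or 22.5% were higher and 31.7 or 31.2% lower in these 2 fits.

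Uqcrq was lowest in this group. The FGF2+OPN libraries read 42.3, 38.5 and 51.0 CPM, all below the naive libraries given above, with a log2 change of -0.82 (SE 0.09, adjusted p = 2.84e-07). In complex IV Cox5a fell by 0.31 on the log2 scale, and Cox6a1 fell by 0.34 with ranges that overlapped (139.7 to 192.8 against 181.2 to 208.5 CPM). Ndufa6, an accessory subunit of complex I, rose from 19.8, 26.8 and 21.6 CPM to 29.8, 31.3 and 37.0 CPM, a log2 change of 0.52 (SE 0.10, adjusted p = 0.000191). The Ndufa6 groups did not overlap, and 54.1% of all genes showed no overlap here. Ndufa1 was called at 0.35, a call lost without the third FGF2+OPN library (0.20).

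Genes for subunit c, which forms the rotating ring of ATP synthase, moved in different directions with the joint treatment. Atp5g1, Atp5g2 and Atp5g3 encode the same mature protein with different import sequences. Atp5g1 stood at 82.9, 94.1 and 83.7 CPM in naive, 76.9, 72.7 and 80.6 in FGF2, and 56.0, 52.6 and 70.9 in FGF2+OPN libraries, and the joint group lay below both. Its log2 change against naive was -0.54 (SE 0.08, adjusted p = 1.11e-05) and against FGF2 -0.36 (SE 0.08, adjusted p = 0.00074), while Atp5g2 rose against FGF2 by 0.41 (SE 0.10, adjusted p = 0.00122). Atp5g3 read 154.4, 141.8 and 157.5 CPM with FGF2 and 114.7, 104.5 and 142.1 CPM with both agents, and fell against FGF2 by 0.33 (SE 0.09, adjusted p = 0.00318) with ranges that overlapped through the third FGF2+OPN library. Of all subunit c counts, Atp5g1 made up 29.5 to 31.1% in naive, 26.7 to 27.3% in FGF2 and 23.2 to 23.6% in FGF2+OPN libraries. Atp5g2 made up 20.9 to 24.3%, 19.1 to 21.3% and 28.7 to 30.7%, and Atp5g3 45.5 to 49.6%, 52 to 54% and 46.1 to 47.9%. These shares do not depend on scaling, and the third FGF2+OPN library lies with its group in all 3.

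**Figure D5:**
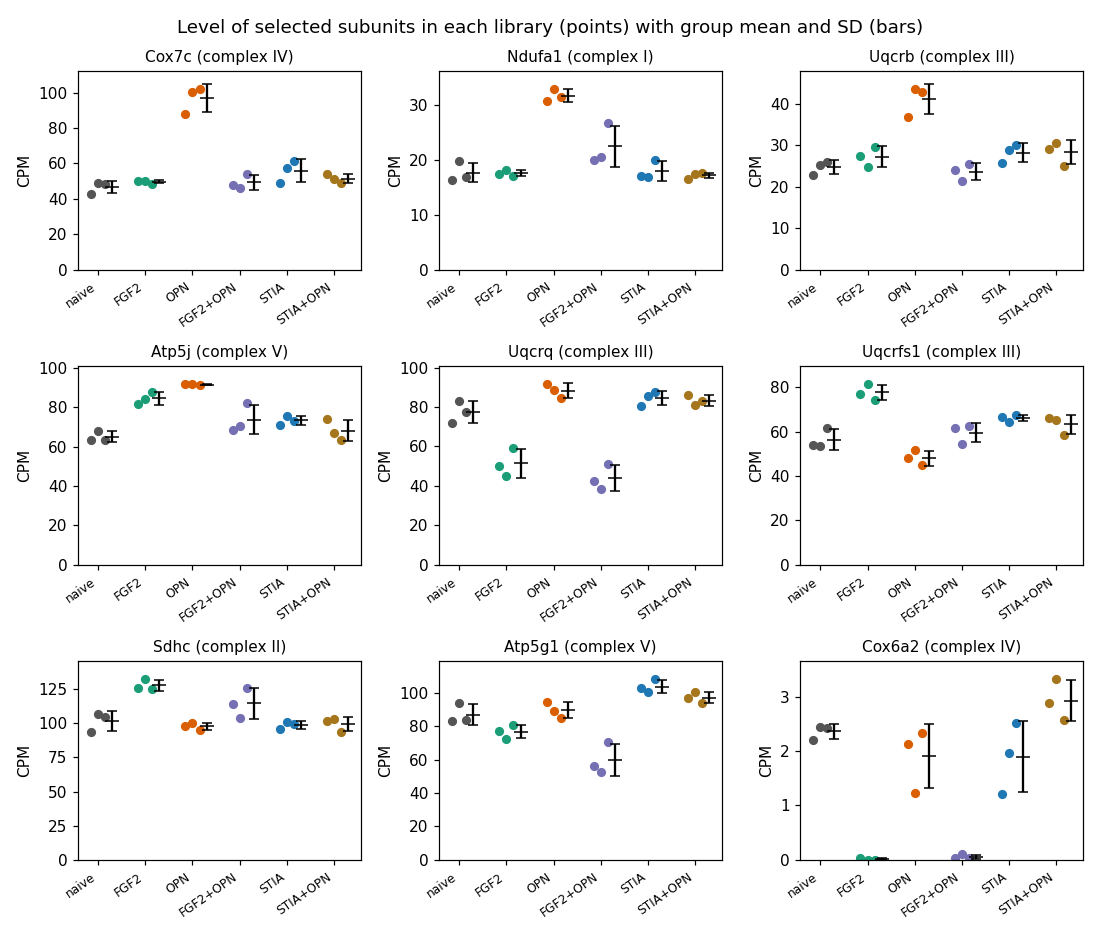
CPM of 9 members in each library (points) with the group mean and SD (bars, n = 3), each axis starting at 0. Cox7c, Ndufa1 and Uqcrb are highest in the OPN libraries, Uqcrq is low in both FGF2 groups, and Cox6a2 is near 0 in both FGF2 groups.

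Set against OPN alone, the joint treatment called 11 members higher and 34 lower, beside 27.1 and 29.5% of all genes (56.5% in all; 60.2% showed no overlap of libraries). Without the third FGF2+OPN library 7 were higher and 48 lower. By library totals alone the split was 20 higher and 27 lower, beside 36 and 20.3% of all genes, with the median of all genes moved from -0.01 to 0.12. Cox7c read 47.9, 46.1 and 54.0 CPM in FGF2+OPN libraries, a range that overlaps the naive one, and differed from OPN by -0.97 (SE 0.08, adjusted p = 1.44e-09) on the log2 scale. Uqcrb differed by -0.80 (SE 0.09, adjusted p = 1.99e-07), Ndufa3 by -0.78 (SE 0.11, adjusted p = 4.15e-06) and Uqcrq by -1.01 (SE 0.09, adjusted p = 9.9e-09).

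Set against FGF2 alone, 9 members were higher and 12 lower, beside 27.3 and 31.2% of all genes (58.4% in all). Without the third FGF2+OPN library 7 were higher and 34 lower. By library totals alone 12 were higher and 7 lower, beside 31.5 and 26.3% of all genes. With the transcript or coding length trend removed 8 were higher and 23 or 17 lower. Of all genes 25.7 or 25.5% were higher and 38.1 or 37.6% lower in these 2 fits. Ndufv3, which FGF2 lowered, read 44.5, 44.7 and 55.4 CPM with both agents, and differed from FGF2 by 0.62 (SE 0.09, adjusted p = 3.56e-06). Uqcrfs1, which FGF2 raised, read 61.6, 54.5 and 62.5 CPM and differed from FGF2 by -0.38 (SE 0.07, adjusted p = 8.1e-05). For both genes the FGF2+OPN libraries lay apart from the FGF2 ones, as in 60.3% of all genes.

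The interaction term asks whether OPN acts differently with FGF2 present. It was negative for 31 members and positive for 4 (40 and 4 without the third FGF2+OPN library), beside 27.2 and 24.1% of all genes (51.2% in all), with a member median of -0.20. The largest negative terms were in Cox7c (-1.06, SE 0.12, adjusted p = 1.02e-07), Atp5k (-0.98, SE 0.32, adjusted p = 0.0169), Uqcrb (-0.94, SE 0.13, adjusted p = 3.53e-06) and Atp5mpl (-0.87, SE 0.11, adjusted p = 1.35e-06). Positive terms were found for Ndufv3 (0.70, SE 0.13, adjusted p = 7.54e-05), Uqcrc2 (0.24), Cox6b2 (1.06) and Cox4i2 (3.37), and the Uqcrc2 call was lost without FGF2 library 1 (0.19) or OPN library 3 (0.20). With the coding length trend removed 19 terms were negative and 7 positive, beside 31.2 and 23.9% of all genes.

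STIA cells gave few calls against naive ones in these genes. Against naive, 12 members were higher and 4 lower, beside 18.6 and 18.2% of all genes (36.8% in all), with a member median of 0.08. Spearman's rho between the log2 change and coding length was -0.30 over the members and -0.52 over ribosomal proteins. Only 4 of the 16 calls held when any 1 library was left out, and 6 members were called without naive library 1 and 8 without STIA library 2 or 3. The 4 were Cox7a2l, Cox7a2, Cox7b and the low Cox6b2.

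Cox7a2l, the joining factor of complexes III and IV, read 154.8, 164.8 and 156.8 CPM in naive and 123.9, 124.9 and 135.0 CPM in STIA libraries, a log2 change of -0.31 (SE 0.07, adjusted p = 0.00141). Its groups did not overlap, and 50.5% of all genes showed no overlap. Cox7a2, the ubiquitous subunit related to it, rose by 0.30 (SE 0.08, adjusted p = 0.00601), and Cox7b by 0.31 (SE 0.08, adjusted p = 0.00552) with ranges that overlapped (43.4 to 52.9 and 52.6 to 62.4 CPM).

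Tissue-restricted isoforms of complex IV were present at low CPM and gave the largest log2 changes with FGF2. Cox6a2, the heart and skeletal muscle isoform of subunit VIa, had raw counts of 70, 69 and 70 in naive libraries, 1, 0 and 0 with FGF2 and 1, 3 and 1 with FGF2+OPN, against 85, 48 and 70 with OPN. The FGF2 level was 0.455% of the naive one (exact 95% interval 0.0115 to 2.56%) and the FGF2+OPN level 2.09% (0.671 to 4.95%), intervals that cover counting error only. edgeR called both differences (adjusted p = 3.41e-10 and 2.65e-09). STIA libraries had 44, 54 and 71 counts and STIA+OPN libraries 79, 119 and 78. Its partner Cox6a1 was at 161.2 to 175.3 CPM with FGF2.

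Cox6b2, known as the testis isoform of subunit VIb, had 60, 65 and 67 counts in naive, 36, 43 and 42 in FGF2, 124, 113 and 107 in OPN, 136, 124 and 140 in FGF2+OPN, 30, 39 and 26 in STIA and 48, 50 and 38 in STIA+OPN libraries. Its log2 change against naive was -0.74 with FGF2, 0.87 (SE 0.19, adjusted p = 0.000584) with both agents and -1.05 (SE 0.22, adjusted p = 0.000682) in STIA. With OPN it was 0.56, a call lost without OPN library 1 (0.57) or 3 (0.47) or naive library 1 (0.46) or 2 (0.60). Relative to Cox6b1 counts it was 2.53 to 2.96% in naive, 1.28 to 1.59% in FGF2 and 4.01 to 5.43% in FGF2+OPN libraries.

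Cox4i2, the isoform of subunit IV linked to low oxygen and to pericytes and lung, had 40, 52 and 26 counts in naive, 6, 10 and 18 in FGF2, 16, 15 and 30 in OPN and 54, 49 and 62 in FGF2+OPN libraries. It fell with FGF2 by 1.87 (SE 0.50, adjusted p = 0.00319) on the log2 scale and was higher with both agents than with FGF2 alone by 2.17 (SE 0.49, adjusted p = 0.000703). Cox7a1, the muscle isoform of subunit VIIa, had 9, 2 and 15 counts in naive and 23, 22 and 15 in FGF2 libraries. In CPM these ranges overlap (0.0709 to 0.521 and 0.454 to 0.767). The Cox7a1 call (1.13) was lost without naive library 1 (1.11) or 2 (0.69), FGF2 library 1 (1.00) or 2 (1.04), and with DESeq2. Cox8c had 0 counts in every library, Cox8b at most 3, and Cox7b2 had 7 counts in FGF2 library 3 and 1 in STIA library 3.

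Markers of cells that use these isoforms were summed beside them. The 12 skeletal muscle markers summed to 12.1 to 14.2 CPM in naive, 5.98 to 14.4 in FGF2, 18.8 to 24.3 in OPN, 11.5 to 13.3 in FGF2+OPN, 63.2 to 79.3 in STIA and 28.9 to 33.3 CPM in STIA+OPN libraries. The 9 pericyte and smooth muscle markers summed to 346 to 372 CPM in naive, 262 to 374 in FGF2, 256 to 329 in OPN, 236 to 262 in FGF2+OPN, 523 to 602 in STIA and 405 to 458 CPM in STIA+OPN libraries. The naive and FGF2 ranges overlap for both lists. Within the muscle list Acta1 averaged 6.3 CPM in naive and 7.21 with FGF2, and Myh4 0.0236 and 0.0331. Ckm was at 0 in both, and the other muscle markers averaged less with FGF2, as Cox6a2 did. Actn3 averaged 2.4 and 0.855 CPM and Tnnt3 1.41 and 0.707 CPM. Of the muscle sum Acta1 held 6.3 CPM in naive and 65.3 CPM in STIA libraries, while Ckm was at 0 and 0.0121 CPM, and the pericyte marker Higd1b was at 0 CPM in naive libraries. Most of the pericyte sum is Cspg4, and single markers moved apart from it. In naive, FGF2 and FGF2+OPN libraries Abcc9 averaged 1.56, 0.358 and 8.06 CPM and Kcnj8 0.24, 0.0552 and 1.6 CPM. Cox4i2, at 1.34, 0.359 and 1.65 CPM, was also low with FGF2, but its FGF2+OPN range overlapped the naive one. In the same order Cnn1 averaged 37.2, 6.22 and 12.2 CPM and Myh11 2.1, 0.606 and 1.02 CPM, both below naive with both agents. Rgs5 averaged 2.23, 41.1 and 38.4 CPM. The part of these cells in the isoform levels was not tested.

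Among other genes of the pathway, counts are read against the shares of all genes called: 29.1% higher and 28.1% lower with FGF2, 15.2 and 16.5% with OPN, 23.7 and 26.1% with both agents, and 18.6 and 18.2% in STIA. The subunits encoded in mitochondrial DNA gave few calls, with 0 of 13 called with FGF2, 1 higher and 2 lower with OPN, 0 with both and 2 higher in STIA. With OPN mt-Co3 fell by 1.05 (SE 0.18) and mt-Atp6 by 0.92 (SE 0.31) while mt-Nd6 rose by 0.94 (SE 0.31), on the log2 scale. The 2 falls are in genes with few counts: mt-Co3 averaged 17.3 CPM in naive and 8.39 with OPN, and mt-Atp6 7.74 and 4.08. By contrast mt-Co1 averaged 2520 and 2720 CPM. How reads with multiple matches were counted is not stated, so these low levels may not reflect the transcripts. Complex IV assembly factors were 7 higher and 1 lower of 23 with OPN, led by the short Pet100 (1.04) and the copper chaperone Cox17 (0.92). With both agents 6 were higher and 10 lower (2 and 11 without the third FGF2+OPN library), and of 17 complex I assembly factors 2 were higher and 8 lower (0 and 7 without it).

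Mitochondrial ribosomal proteins were called 21 higher and 8 lower of 78 with FGF2, 24 and 1 in STIA, and 3 and 23 with both agents (2 and 32 without the third FGF2+OPN library). These are 26.9% higher and 10.3% lower with FGF2, a higher share near that of all genes, and 30.8 and 1.28% in STIA. Genes of the tricarboxylic acid cycle were 9 higher and 1 lower of 18 with FGF2, led by Idh3a (0.60), and 2 higher and 6 lower both with OPN and with both agents (1 and 8 without that library). Cytochrome c, Cycs, which carries electrons from complex III to IV, was at 45.5 CPM in naive, 70.7 in STIA (log2 change 0.64, SE 0.10) and 30.9 CPM with both agents (-0.56, SE 0.11).

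Of 11 hypoxia-linked genes, some of them outside the mitochondrion, 10 were lower and 1 higher with OPN, against 16.5 and 15.2% of all genes. The falls were led by Car9 (-1.62, SE 0.25) and Egln3 (-1.47, SE 0.19), and the rise was Iscu (0.47, SE 0.07), a scaffold of iron-sulphur cluster assembly, on the log2 scale. With FGF2 2 were higher and 6 lower: the glucose transporter Slc2a1 went from 134 to 258 CPM and Vegfa from 192 to 367 CPM, while the Ndufa4 relative Ndufa4l2 went from 65.2 to 6.58 CPM and Car9 from 18.2 to 5.04 CPM. Of 21 regulators of mitochondrial biogenesis 0 were higher and 4 lower with OPN, a lower share (19%) near that of all genes, among them Pprc1 (-0.39). The coactivator Ppargc1a was at 0.394 CPM in naive and 1.59 CPM with both agents (log2 change 2.00, SE 0.43).

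Exons of 25 members overlap a gene on the opposite strand. The labels do not say whether the counting used strand, so reads of the partners may not be told apart in Atp5j (with Gabpa over 175 bases), Cox6c (with Vps13b over 250 bases), Uqcrb (with Gm10767 over 50 bases), Atp5a1 (with Haus1 over 129 bases) or Cox6a2 (with Itgad over 70 bases). How reads that match processed copies of these genes were counted is not stated either.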

How the data were processed

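Counts per gene and library were deposited by the authors as raw counts, made with STAR and featureCounts on GRCm38 (mm10) per the submitters' processing notes. For versions, annotation release, strand and multiple matches the record used here gives nothing. Of 32285 identifiers, 32158 were given a symbol from GENCODE mouse M21, which also gave coding and transcript lengths. The members and gene lists were chosen with earlier results of these data known.

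Counts of 18 libraries (27527043 to 40357342 in total) were fitted in edgeR 4.0.16 (R 4.3.3) with TMM scaling, filterByExpr, 1 mean per group and robust quasi-likelihood F tests. The biological coefficient of variation was 7.99%. Two-sided p-values were adjusted over 15072 genes (Benjamini-Hochberg, called below 0.05). The fit was tested on simulated data. Named members are the 3 largest called rises and falls per complex and comparison, complex II, restricted isoforms with their counterparts, subunit c genes, Ndufa4, Atp5k, Atp5e and the highest member per complex. From other lists at most 2 rises and 2 falls are named. Core subunits of complex I, Atp5l, Cycs, Ppargc1a and single pericyte markers were added after their values were seen, as were some further members given with a log2 change only.

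Alternatives were library totals, DESeq2 1.42.0, no filter, a mean of at least 5 CPM, only the groups compared, a replicate block, each library left out, and 2 length trends. CPM are counts per 1000000 after TMM. At these depths 3 counts correspond to 0.0743 to 0.109 CPM. Whether replicate numbers pair libraries is not stated, and of 45 same-number pairs the correlations ran from -0.104 to 0.199. Library 3 had the lowest percentage of mitochondrial DNA transcripts in naive (0.374), FGF2 (0.477), FGF2+OPN (0.455), STIA (0.383) and STIA+OPN (0.468) cells. With OPN alone library 1 was lowest (0.601, against 0.628 in library 3). Whether libraries of the same number shared a culture or batch was not tested. Values of 1 tested member are not reported here singly, and it is counted in all totals.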

Additional observations from a re-analysis of the deposited data

Results flagged for a closer look

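The effect of OPN differed between cells of STIA and naive mice for 24 members by edgeR's test of the difference, of which 15 are listed here. In each case the log2 OPN effect was smaller in STIA cells. The difference was -1.17 for Cox7c, -1.17 for Atp5k, -1.0 for Ndufa3 and -0.91 for Ndufa1. It was -0.78 for Ndufb4, -0.78 for Atp5mpl, -0.73 for Uqcrb, -0.71 for Uqcr10, -0.68 for Cox5b and -0.67 for Uqcr11. It was -0.60 for Atp5j, -0.60 for Ndufa4, -0.54 for Cox7b, -0.53 for Cox6b1 and -0.48 for Cox7a2. All 15 lie at or below 129 codons, but Ndufa13, another of the 24, has 144. The short-to-long ratio of members was 0.528 to 0.557 in the OPN libraries and 0.348 to 0.416 in all others. A smaller effect in STIA cells and a property of the 3 OPN libraries of naive cells cannot be told apart for these members. Groups of 3 libraries were not tested for single outlying libraries.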

How the results depend on the processing

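Over 152 named calls no alternative reversed a direction. The same calls held in 147 with DESeq2, 149 with a replicate block, 145 with no filter, 140 by library totals, 137 with only the groups compared, 138 and 116 with the transcript and coding length trends removed, and 105 whichever library was left out. Of 138 testable with a mean of at least 5 CPM, 130 held.

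Counts of members called that moved by more than 1.5 times were as follows. By library totals FGF2 against naive gave 32 instead of 21 and FGF2+OPN against naive 35 instead of 17. With only the groups compared FGF2+OPN against naive gave 10 and STIA+OPN against STIA 6 instead of 0, and with no filter the latter gave 2. Leaving out single libraries gave 12 to 20 calls for FGF2, 13 to 28 for FGF2+OPN and 6 to 13 for STIA against naive, and 17 to 41 for FGF2+OPN against FGF2. The extremes came without FGF2 library 3 (12), FGF2+OPN library 3 (28 and 41) and naive library 1 (6), and 8 were called in STIA without STIA library 2 or 3. For OPN against naive it gave 28 to 38, for FGF2+OPN against OPN 37 to 55, for the interaction 29 to 44 and for the difference in OPN effect 23 to 27. The cause of these shifts was not tested.

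Replicate numbers are not stated to pair libraries, and 7 of 18 libraries correlated best with their own number. With the replicate block the counts were 20 for FGF2, 39 for OPN, 17 for FGF2+OPN and 15 for STIA against naive, 0 for STIA+OPN against STIA, 20 and 45 for FGF2+OPN against FGF2 and OPN, 36 for the interaction and 23 for the difference in OPN effect. Precision is limited by 3 libraries a group, and for Cox7b2, Cox8b and Cox8c by counts at or near 0.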
